A study of Mus musculus with 8 samples.

Results

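The CpGs described here stayed highly methylated by bisulphite reading when *Tet3* was knocked down in neural progenitor cells (NPCs). They were chosen on the BS libraries, as autosomal CpGs covered at least 20 times in each of the 4 BS libraries, with a mean level of at least 85% both with the control shRNA and with the *Tet3* shRNA. The rule selected 6916 CpGs, called retained CpGs below, of 757812 CpGs listed. They were 1.39% of the 497953 autosomal CpGs with that coverage and 15.3% of the 45325 that were at 85% or more in the control (highly methylated CpGs). The other 38409 highly methylated CpGs, at under 85% with the *Tet3* shRNA, were the set for comparison. A further 404 CpGs reached 85% with the *Tet3* shRNA but not in the control, and were in neither set.

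The NPCs came from A2lox.cre mouse ES cells, in which an shRNA cassette sits in a doxycycline-inducible locus, and all cells received doxycycline at 2 µg/ml for 5 days. One group expressed a non-targeting Scrambled shRNA (shScr) and the other an shRNA against *Tet3* (shTet3), with 2 replicates each. The DNA of each replicate was split into a BS library, which reads 5mC together with 5hmC, and an oxBS library, which reads 5mC alone because 5hmC is oxidised beforehand, for 8 libraries of MspI fragments. Nothing in the labels says whether the replicates were separate differentiations, so the spread between them may be technical, and the level of *Tet3* itself was not measured in these files.

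TET enzymes oxidise 5mC to 5hmC and further forms, and DNMT1 copies methylation to the new strand after replication. In most mammalian cells the bodies of active genes are methylated, whereas CpG-rich promoters are mostly free of methylation. Promoters of germline genes are a known exception that is methylated in somatic cells.

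Sequences are shown where the retained CpGs lay closest together, with the C and G of each retained CpG in capitals and all other bases in lower case, on the forward strand of mm9. The window upstream of *Dazl* overlaps the longest run of retained CpGs and holds 3 of its members, and the 3 that follow are each a whole run in which every highly methylated CpG was retained. The last pair of windows, in *Prkd2* and *Rbck1*, each hold 1 retained CpG beside a CpG that was highly methylated in shScr but not retained.
*Dazl*, upstream of the start, chr17:50432925-50432984: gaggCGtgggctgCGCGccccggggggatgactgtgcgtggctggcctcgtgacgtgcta
*Rere*, coding exon, chr4:149991147-149991193: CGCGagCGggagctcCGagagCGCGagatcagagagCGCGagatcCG
*Pitpnm2*, coding exon, chr5:124571453-124571529: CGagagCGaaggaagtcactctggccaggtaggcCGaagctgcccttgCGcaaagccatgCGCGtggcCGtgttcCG
*Spred2*, coding exon with 1 CpG in the intron before it, chr11:19920759-19920884: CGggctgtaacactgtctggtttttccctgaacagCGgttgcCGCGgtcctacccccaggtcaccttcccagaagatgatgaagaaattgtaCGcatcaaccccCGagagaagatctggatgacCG
*Prkd2*, intron, chr7:17443624-17443686: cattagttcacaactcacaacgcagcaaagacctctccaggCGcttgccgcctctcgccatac
*Rbck1*, coding exon, chr2:152147948-152148005: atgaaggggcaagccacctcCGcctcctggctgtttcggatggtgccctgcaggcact

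In the BS libraries, which chose them, the retained CpGs averaged 91.9% and 95.4% in the 2 shScr replicates against 87.1% and 90.9% in the 2 shTet3 replicates. These values are a description of the choice. Only 3060 of the 6916 were at 85% or more in each of the 4 BS libraries. The rule drew a line through a continuum, since the 1282 CpGs just outside it, at 84 to 85% in shTet3 BS, averaged 81.8% and 87.2% there, against 82.9% and 88.1% for the 1133 just inside, at 85 to 86%. By oxBS the shTet3 mean minus the shScr mean was −10.3 percentage points for those outside and −9.76 for those inside, with no test.

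The oxBS libraries were not used in the choice, although they came from the same DNA. Of the retained CpGs, 6842 had an oxBS coverage of at least 10 in the 4 libraries and 74 did not. Their mean 5mC level was 90.7% and 94.6% in shScr against 80.9% and 87.7% in shTet3. Each shTet3 replicate was under each shScr replicate, so the retained CpGs did not hold their 5mC level by oxBS, and the name "resisting loss" applies only in comparison with the other highly methylated CpGs. The means were 92.6% ± 2.74 and 84.3% ± 4.84 (SD, n = 2), a difference of −8.32 percentage points (two-sided exact permutation test, p = 0.333, the smallest p that this test can give for 2 libraries against 2). Without shTet3 replicate 1 the difference was −4.89.

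The other highly methylated CpGs stood further apart. By oxBS, 38017 of them averaged 83.0% and 90.6% in shScr against 69.0% and 74.8% in shTet3, a difference of −14.9 percentage points (exact permutation test, p = 0.333). The retained CpGs were above them by 7.73 and 3.95 percentage points in the shScr replicates, but by 11.9 and 12.9 in the shTet3 replicates. The gap was wider in both shTet3 replicates than in either shScr replicate, by 6.56 percentage points on average (exact permutation test, p = 0.333).

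The gap was not found in every choice of replicate. When CpGs were chosen on BS replicate 2 alone and measured in oxBS replicate 1, the retained CpGs went from 88.9% in shScr to 76.0% in shTet3, a difference of −13.0 percentage points, and the others from 76.7% to 63.9%, a difference of −12.8. With the choice on BS replicate 2 and the measure in oxBS replicate 2, the same DNA, the differences were −7.98 and −20.8. With the choice on BS replicate 1, they were −8.98 and −14.2 in oxBS replicate 1 and −9.19 and −14.3 in oxBS replicate 2. The smaller difference of the retained CpGs was thus seen in 1 of the 2 choices that crossed replicates.

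**Figure D1:**
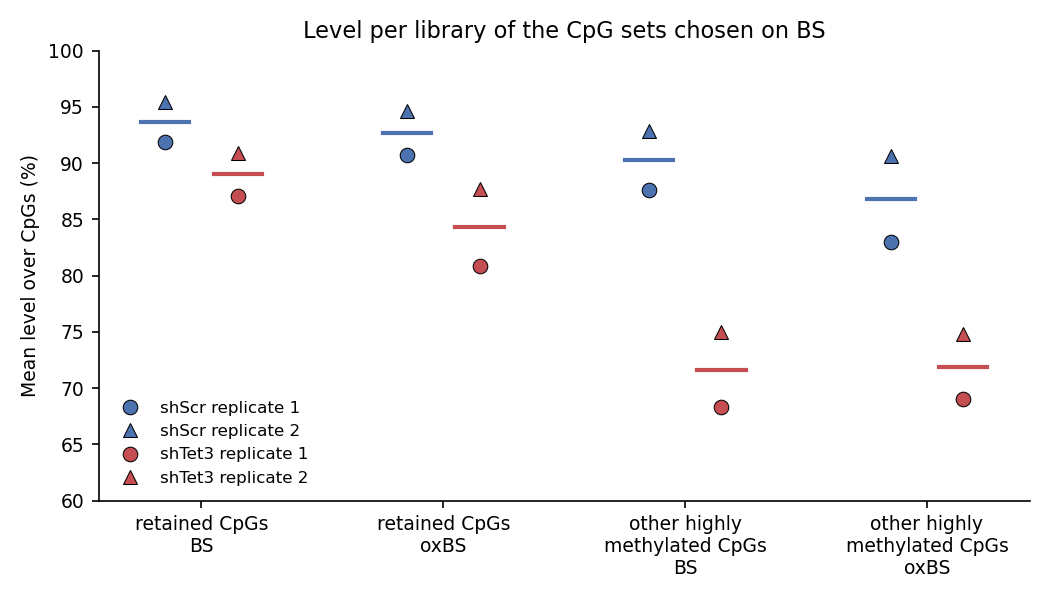
Mean level over CpGs (%, y axis from 60) of the retained and the other highly methylated CpGs in each BS and oxBS library, with circles for replicate 1, triangles for replicate 2 and a line at the mean of the 2. By oxBS the shTet3 replicates of the retained CpGs, at 80.9% and 87.7%, lie below both shScr replicates but above those of the other CpGs, at 69.0% and 74.8%.

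Single CpGs were tested by regressing the methylated share of calls on the shRNA in a logistic model, and hypo-DMPs were those with a *q* value below 0.01 and a pooled 5mC level more than 10 percentage points lower in shTet3. Of the retained CpGs, 1496 of 6842 (21.9%) were hypo-DMPs, against 13.9% of all 662455 CpGs tested and 41.3% of the other highly methylated CpGs (15713). Hyper-DMPs, by the same thresholds in the other direction, were 5 retained CpGs (0.0731%), against 0.0814% of all CpGs and 0.0237% of the others (9). The retained CpGs had oxBS medians of 92.1% and 95.5% in the shScr replicates, which bounds how far they can rise. The others had lower shScr means, 83.0% and 90.6%, and the part of the starting level in these counts was not tested. The 2 shTet3 replicates were both under the 2 shScr replicates at 3458 retained CpGs (50.5%), against 26.3% of all CpGs and 65.6% of the others. These tests treat calls as independent and take no account of the spread between replicates. Under an F test with an overdispersion term there were 0 hypo-DMPs in either set. In that test, 155 of 6842 retained and 2291 of 38017 other CpGs had an unadjusted p below 0.05 with a fall over 10 percentage points. That count was not made over all CpGs tested, so nothing is drawn from it. Without shTet3 replicate 1, 425 retained CpGs were hypo-DMPs, and without shScr replicate 2, 790 were. Hypo-DMP counts of single genes, promoters and runs below cover few CpGs and stand beside the 21.9% of all retained CpGs.

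The retained CpGs varied widely among themselves. The middle 90% of their oxBS differences ran from −20.4 to 2.54 percentage points with a median of −7.97, against a median of −14.5 for the others and −13.4 for all highly methylated CpGs. The mean was lower in shTet3 at 6126 (89.5%) and higher at 711. By oxBS, 92.9% were at 85% or more in shScr but only 49.5% in shTet3, where 7.69% of the other CpGs were. The oxBS level was under 70% at 934 retained CpGs in shTet3 replicate 1 and at 137 in replicate 2, and at 111 and 14 in the shScr replicates. The less methylated replicate of each shRNA was thus replicate 1.

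The oxBS difference followed the shTet3 BS level that the rule used. It was −22.9 percentage points at the 707 highly methylated CpGs under 50% in shTet3 BS and −11.0 at the 7294 between 80 and 85%. Among the retained CpGs it was −9.00 for the 4633 between 85 and 90%, −7.28 for the 1876 between 90 and 95%, and −4.61 for the 333 at 95% or more. In the last group the oxBS means were 93.1% and 96.2% in shScr against 87.6% and 92.5% in shTet3, so that each shTet3 replicate was below the shScr replicates also there. No step was seen at 85%.

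**Figure D2:**
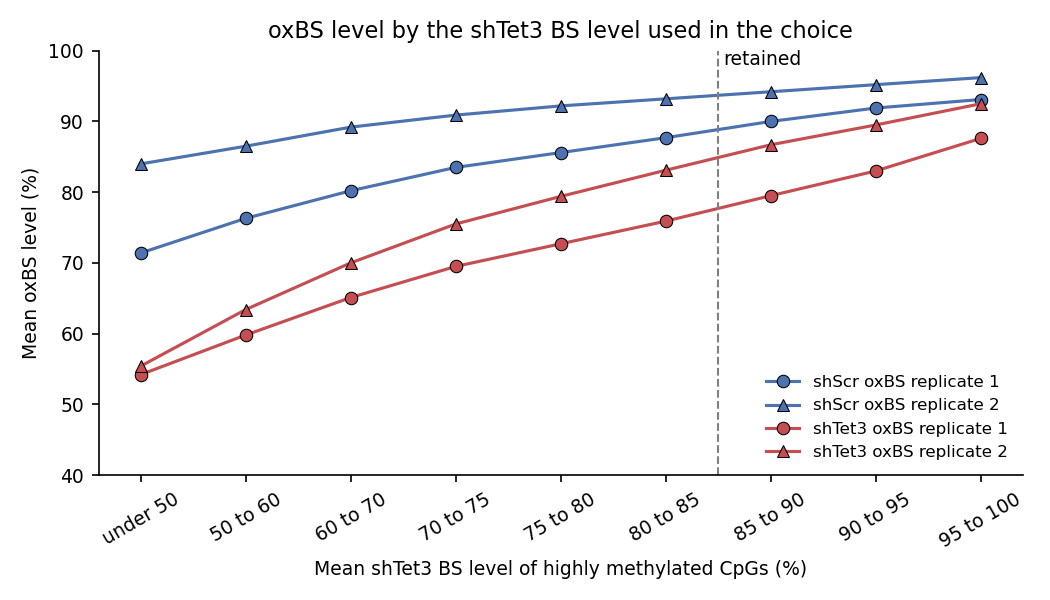
Mean oxBS level (%, y axis from 40) of highly methylated CpGs in each oxBS library, by their mean shTet3 BS level (%, bins on the x axis). The dashed line marks the threshold of 85%, to the right of which lie the retained CpGs. The distance between shScr and shTet3 narrows from a difference of −22.9 percentage points in the lowest bin to −4.61 in the highest.

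The gap was also present among CpGs of like level in shScr BS. The share retained was 5.63% of CpGs between 85 and 90% in shScr BS, 17.5% of those between 90 and 95% and 37.9% of those at 95% or more. Within these bins the oxBS difference of the retained CpGs was −9.29, −8.63 and −7.56 percentage points and that of the others −16.0, −14.1 and −12.5. Weighted by the retained CpGs, the gap within bins was 5.47 percentage points.

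BS minus oxBS, which estimates 5hmC, was 1.20 and 0.831 percentage points at the retained CpGs in the shScr replicates against 6.23 and 3.17 in the shTet3 replicates. At the other highly methylated CpGs it was 4.63 and 2.29 in shScr against −0.752 and 0.131 in shTet3. The rule demanded a high shTet3 BS level and so raises this value for the retained CpGs, and no comparison of 5hmC was drawn from it.

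Retained CpGs lay in gene bodies in a larger share than the others, which describes the choice and was not tested. Of the highly methylated CpGs, 20.1% were retained in coding exons, 18.3% in UTRs, 16.7% in promoters (−1 kb to +0.5 kb of a protein-coding start), 15.1% in introns and 8.69% in intergenic sequence. Coding exons held 2751 retained CpGs (39.8%, against 28.6% of the others). Introns held 2606 (37.7%, against 38.1% of the others), so they had no larger share. The share was higher in coding exons than in intergenic sequence on 19 of 19 autosomes. Protein-coding genes from start to end, without the sequence upstream, held 85.4% of the retained CpGs and 73.4% of the others.

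The oxBS libraries were then read over all highly methylated CpGs, a set chosen on shScr alone. In coding exons they averaged 85.3% and 92.4% in shScr against 73.3% and 79.3% in shTet3, a difference of −12.5 percentage points. In intergenic sequence they averaged 82.4% and 89.8% in shScr against 67.8% and 73.1% in shTet3, a difference of −15.6. Promoters (−13.0), UTRs (−13.3) and introns (−14.0) lay between them. Coding exons were above intergenic sequence by 2.91 and 2.58 percentage points in the shScr replicates against 5.47 and 6.23 in the shTet3 replicates, without overlap (exact permutation test of the change in this gap, p = 0.333).

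The share retained was also higher where the sequence around a CpG was richer in GC and CpG. It was 12.4% where at most 50% of the bases within 100 bp were G or C and 23.6% where over 65% were. With 0 to 2 other CpGs within 100 bp it was 11.9%, and with 15 or more it was 23.0%. By oxBS, the highly methylated CpGs over 65% GC were above those at 50% or less by 0.279 and 0.588 percentage points in the shScr replicates but by 6.96 and 3.80 in the shTet3 replicates (exact permutation test of the change, p = 0.333). Predicted CpG islands, which held 64.6% of all CpGs with BS coverage, held 8.05% of the retained CpGs and 5.47% of the others.

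GC content and the kind of region each went with the share. In coding exons the share went from 14.5% at up to 50% GC to 25.4% over 65% GC. In intergenic sequence it stayed between 8.21% and 8.92% up to 65% GC, and was 15.1% over 65%, where there were only 139 highly methylated CpGs. In introns it went from 14.3% to 17.1% up to 65% GC, and was 11.4% in the 175 CpGs over it.

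**Figure D3:**
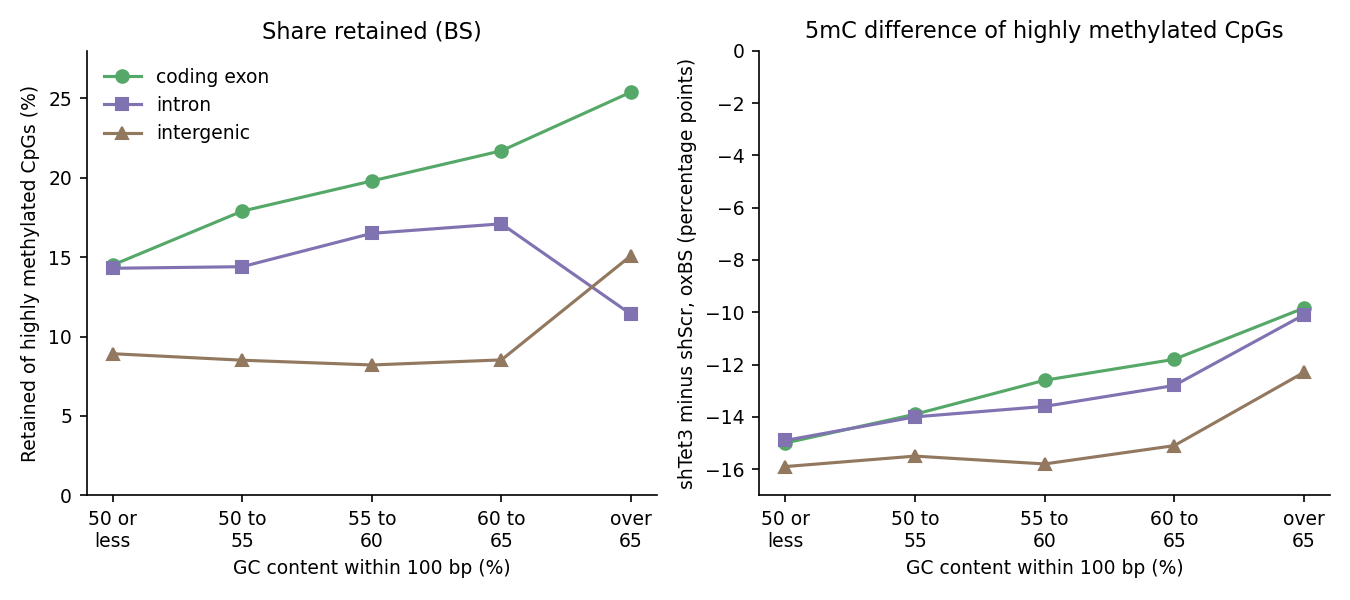
Share of highly methylated CpGs that were retained (%, left) and their oxBS difference between shTet3 and shScr (percentage points, right), by GC content within 100 bp (%) for coding exons, introns and intergenic sequence. Coding exons rise on the left from 14.5% to 25.4%, and on the right their difference goes from −15.0 to −9.84 percentage points while the intergenic one goes from −15.9 to −12.3.

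The share was lower far from a transcription start, with 17.5% at 1 to 5 kb and 8.36% beyond 100 kb. By the bases on each side of the CpG it ran from 8.08% at TCGA to 19.4% at GCGC, and was 14.8% at CCGG, the site cut by MspI, against 15.5% elsewhere. Among the autosomes it ran from 11.8% to 17.6%. By BS coverage, in 4 classes of like size, the share was 16.2% in the lowest class and 13.7% in the highest. Among CpGs at 95% or more in shScr BS the order was the reverse, with 32.8% in the lowest class and 44.0% in the highest. Hypo-DMPs were 15.9% of the retained CpGs in the lowest class and 28.3% in the highest. The part of coverage in the other differences was not tested.

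Retained CpGs lay together. Of 4053 retained CpGs with another highly methylated CpG within 75 bp downstream, 45.8% had a retained one as the nearest, against 12.9% of the others. At this distance CpGs can share a read. At 1 to 5 kb, beyond any read, the values were 24.4% and 18%, and at 20 to 100 kb they were 13.8% and 11.4%. In the order of highly methylated CpGs, 3665 of the 6916 retained CpGs had no retained CpG next to them within 1 kb. The other 3251 lay in 1258 runs of 2 or more, of which 77 held 5 or more. CpGs of intermediate level (50 to 85% in shScr BS) that lay between 75 bp and 1 kb of a retained CpG and of no other highly methylated CpG numbered 479. They were 64.7% and 78.8% methylated by oxBS in shScr against 56.3% and 56.2% in shTet3, a difference of −15.5 percentage points, against −18.0 for the 10072 beside other highly methylated CpGs only.

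The promoter of *Dazl*, which encodes an RNA-binding protein of germ cells, held the most retained CpGs of any promoter and the longest run. Of 27 highly methylated CpGs, 22 (81.5%) were retained, 16 of them in the 5′ UTR, 3 upstream of the start and 3 in the first intron (gene at chr17:50418719-50432924, reverse strand). By oxBS the 22 averaged 92.3% and 95% in shScr against 91.5% and 92.2% in shTet3. The lower shScr replicate and the higher shTet3 replicate were nearly level, the difference was −1.81 percentage points, and none of the 22 was a hypo-DMP. It was −0.443 without shScr replicate 2 and −3.17 without shScr replicate 1.

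Within the promoter the longest run joined 17 CpGs over 151 bp (chr17:50432791-50432941), 14 of them in the 5′ UTR. By oxBS it averaged 92.0% and 94.2% in shScr against 92.1% and 92.9% in shTet3. The groups overlapped, with a difference of −0.564 percentage points, and 8 of the 17 CpGs were higher in shTet3. The difference was 0.579 without shScr replicate 2, −1.71 without shScr replicate 1, −0.180 without shTet3 replicate 1, −0.948 without shTet3 replicate 2 and −0.00757 as a read-weighted mean. These CpGs share MspI fragments and are not independent. The 3 upstream CpGs are those in capitals in the *Dazl* sequence given above. The methylated stretch ended inside the first intron, where 4 CpGs under 60% averaged 26.9% and 37.8% by oxBS in shScr against 22.4% and 23.8% in shTet3.

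**Figure D4:**
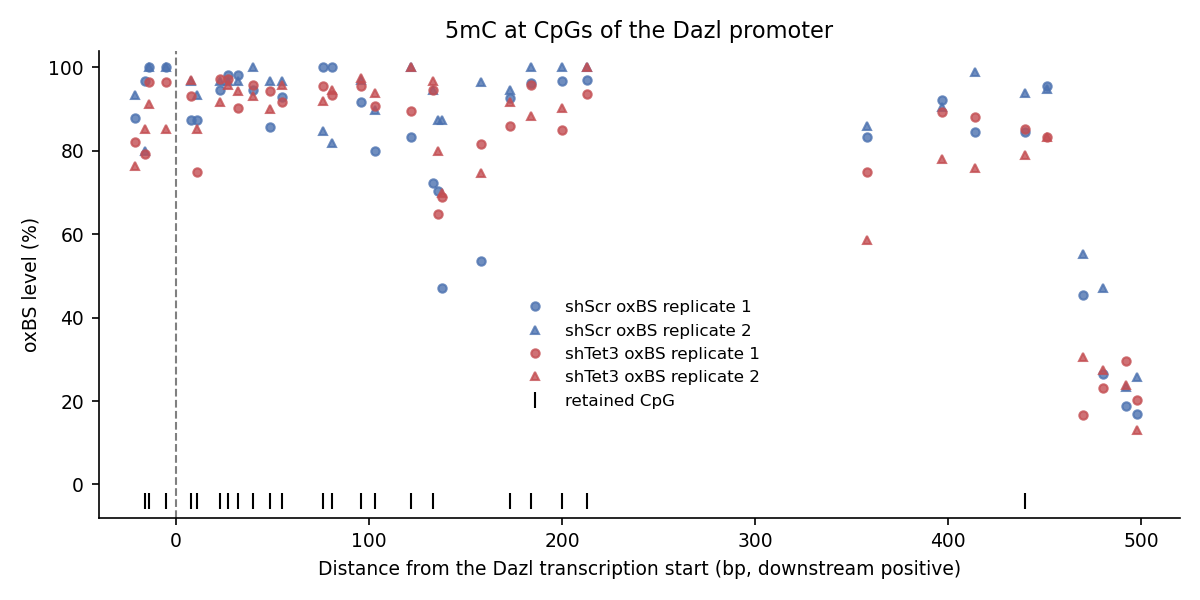
oxBS level (%) in each of the 4 oxBS libraries at the 34 CpGs of the *Dazl* promoter with BS coverage, by distance from the transcription start (bp). Ticks at the bottom mark the 22 retained CpGs. Points of shScr and shTet3 intermingle near the start, and the level drops in all libraries at the downstream end.

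Other promoters with the most retained CpGs were those of *Rere* and *Csnk1g2*, with 9 each, and of *Tuba3a*, *Adrbk1* and *Tnrc18*, with 6 each. Of these, only the *Tuba3a* window lay at the outer start of its gene. The windows of *Rere*, *Csnk1g2*, *Adrbk1* and *Tnrc18* lay inside the gene, at the start of another annotated transcript. At *Csnk1g2*, for example, the window was chr10:80096180-80097680, in a gene that starts at 80085525. Their values do not describe the promoter at the gene start. In all, 161 genes had a retained CpG in a promoter and 23 had 3 or more in one promoter. Of the 293 retained promoter CpGs, 153 (52.2%) were also in coding sequence of an annotated transcript. The 9 CpGs of *Rere*, which encodes a nuclear receptor co-repressor, were all in coding sequence and form the run shown above, averaging 96.3% and 97.0% in shScr against 84.3% and 90.6% in shTet3. Their difference of −9.21 percentage points was −6.09 without shTet3 replicate 1, and 4 of the 9 were hypo-DMPs.

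At *Csnk1g2*, a casein kinase gene, the 9 CpGs averaged 91.0% and 97.0% in shScr against 90.6% and 89.6% in shTet3, and none was a hypo-DMP. The difference of −3.93 percentage points was −0.943 without shScr replicate 2 and −6.92 without shScr replicate 1. At *Tnrc18* the 6 CpGs averaged 84.6% and 90.9% in shScr against 83.1% and 90.4% in shTet3, where the groups overlapped and the difference of −1.04 percentage points turned to 2.16 without shScr replicate 2 and to 2.61 without shTet3 replicate 1, and was −4.23 without shScr replicate 1 and −4.69 without shTet3 replicate 2. At *Tuba3a*, a testis tubulin gene, the 6 CpGs averaged 95.2% and 91.1% in shScr against 77.4% and 89.3% in shTet3. Its difference of −9.83 percentage points was −3.87 without shTet3 replicate 1 and −15.8 without shTet3 replicate 2. At *Adrbk1*, which encodes a kinase of G protein-coupled receptors, the 6 CpGs averaged 95.4% and 96.1% in shScr against 84.6% and 92.7% in shTet3. The difference of −7.06 was −3.0 without shTet3 replicate 1 and −11.1 without shTet3 replicate 2.

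Among germline genes, a list that includes *Dazl*, 38 of 99 highly methylated CpGs (38.4%) were retained, against 15.3% of all highly methylated CpGs. They lay in 9 of the 20 genes with such a CpG, and 36 of the 38 were in promoters. Without *Dazl*, left out after its values were seen, 16 of 72 (22.2%) were retained. With *Dazl* included, the highly methylated CpGs of the list had a median oxBS difference of −10.6 percentage points, against −13.4 over all. No median was taken without *Dazl*, whose 27 CpGs had a mean difference of −2.68, against a mean of −10.5 over the 98 CpGs of the list with oxBS coverage. The mean over all highly methylated CpGs was −13.9. As *Dazl* pulls the list towards a smaller difference, the list value is not a trait of its other genes. Of the 38 retained CpGs 4 were hypo-DMPs, none of them in *Dazl*, against 21.9% of all retained CpGs. *Fkbp6*, which encodes a co-chaperone needed in meiosis, had 3 retained CpGs, all of them hypo-DMPs, at 93.1% and 88.5% in shScr against 69.9% and 75.3% in shTet3.

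The shares in the other lists lay on both sides of the 15.3% of all highly methylated CpGs. The share was 149 of 842 (17.7%) in zinc finger genes named Zfp or similar, with a median oxBS difference of −11.5 percentage points over their highly methylated CpGs, and 22 of 113 (19.5%) in genes of the DNA methylation machinery, with a median of −11.7. It was 10 of 80 (12.5%) in imprinted genes, with a median of −15.4, and 3 of 23 in pluripotency genes, with a median of −18.3. It was 3 of 15 in clustered protocadherin genes (median −17.3) and 2 of 44 (4.55%) in neural genes (median −12.9).

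The named members of these lists differed in their share retained. *Zfp629* held 16 of 43, all in coding exons, at 94.2% and 94.5% by oxBS in shScr against 86.1% and 84.3% in shTet3, whereas *Zfp423* held 2 of 31. *Tet3* itself held 5 of 38 and *Dnmt1*, the maintenance methyltransferase, 4 of 17, with 0 hypo-DMPs among either's retained CpGs. These are too few CpGs to set against the 21.9% of all retained CpGs. Among all highly methylated CpGs of the gene, hypo-DMPs were 10 of 38 in *Tet3* and 4 of 17 in *Dnmt1*. *Sall4*, a pluripotency transcription factor, held 3 of 9, and *Prdm14*, another, 0 of 5. *Trappc9* held 1 of 17 and *Peg10*, a paternally expressed imprinted gene, 2 of 11, and *Pcdhgc5* held 3 of 14, *Notch1* 2 of 17 and *Ntrk2* 0 of 14.

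Across protein-coding genes, 2468 of the 7020 with a highly methylated CpG had a retained one, and 305 had 5 or more. Of the 241 genes with at least 20 highly methylated CpGs, 13 had none and 15 had most of them retained, with a median share of 21.6%. The count was highest for *Gm20388*, with 60 of 419, but this is an annotated transcript locus of 4.43 Mb, and 54 of the 60 lie in other protein-coding genes within it. The difference over the 60 was −5.51 percentage points, and −3.29 without shScr replicate 2.

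Apart from *Dazl*, the next genes by count had most of their retained CpGs in coding exons or introns. *Hspg2*, which encodes the basement membrane proteoglycan perlecan, had 53 of 105 (50.5%), in coding exons (31) and introns (22). By oxBS these averaged 91.5% and 95.8% in shScr against 84.8% and 89.1% in shTet3, a difference of −6.70 percentage points. Of the 53, 7 were hypo-DMPs, against 21.9% of all retained CpGs. *Plec*, which encodes the cytoskeletal linker plectin, had 35 of 78, with oxBS means of 92.7% and 95.6% in shScr against 89.3% and 89.6% in shTet3 and a difference of −4.70. In both genes the shTet3 replicates lay below the shScr replicates.

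*Cit*, a kinase gene of cytokinesis, had 33 of 73 retained and a difference of −6.77 percentage points, and *Zfhx3*, a homeobox gene, 28 of 96 and −6.29. *Cdc42bpb*, a kinase gene of the cytoskeleton, had 23 of 61 and −7.60, *Spen*, which encodes a transcriptional repressor, 22 of 56 and −6.95, and *Mll2*, a histone H3 methyltransferase gene, 21 of 41 and −7.12. *Map3k1*, a MAP kinase kinase kinase gene, had 20 of 31 (64.5%) and −6.28. In each of these 6 genes the shTet3 replicates were under the shScr replicates. From 2 to 4 of the retained CpGs of each gene were hypo-DMPs, against 21.9% of all retained CpGs, and these small counts were not tested. The size of these differences moved when single libraries were left out. Without shTet3 replicate 1 they were −1.94 for *Cit*, −2.93 for *Zfhx3*, −4.86 for *Cdc42bpb*, −3.34 for *Spen* and −4.05 for *Mll2*. Without shTet3 replicate 2 they were −11.6 for *Cit*, −9.65 for *Zfhx3* and −10.6 for *Spen*, and without shScr replicate 2 they were −4.11 for *Zfhx3* and −3.47 for *Map3k1*.

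By share retained, *Dazl* was followed by *Parvb*, which encodes an actin-binding protein of focal adhesions, with 16 of 23 (69.6%), all intronic. By oxBS these averaged 93.0% and 94.8% in shScr against 84.7% and 93.2% in shTet3, so that the higher shTet3 replicate was within the shScr range. Their difference of −4.95 percentage points was −0.677 without shTet3 replicate 1 and −9.21 without shTet3 replicate 2. They included the second longest run, 10 CpGs over 417 bp, at 91.0% and 94.6% in shScr against 87.1% and 95.4% in shTet3. The difference over the run was −1.55 percentage points, 0.233 without shScr replicate 2, 2.61 without shTet3 replicate 1, −3.33 without shScr replicate 1, −5.71 without shTet3 replicate 2 and −0.663 as a read-weighted mean. *Llgl2*, a cell polarity gene, had 14 of 24 and a difference of −3.09, *Myh9*, a non-muscle myosin gene, 14 of 25 and −6.35, and *Pxdn*, a peroxidase gene of the extracellular matrix, 11 of 20 and −10.9, with 6 of the 11 hypo-DMPs. *Llgl2* was at −1.62 without shScr replicate 2 and −1.79 without shTet3 replicate 1, and *Myh9* at −2.42 without shTet3 replicate 1 and −10.3 without shTet3 replicate 2.

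At the other end, *Celsr1*, *Gse1*, *Gtf2ird2* and *Cux2* had 0 retained of 34, 27, 25 and 23 highly methylated CpGs. *Celsr1*, a planar cell polarity gene, averaged 81.2% and 91.7% over its highly methylated CpGs in shScr against 72.3% and 69.2% in shTet3 by oxBS. Its difference of −15.7 percentage points compares with −7.68 over the 105 of *Hspg2*. The differences were −11.0 for *Gse1*, −16.6 for *Gtf2ird2* and −14.6 for *Cux2*, a homeobox gene of upper-layer neurons. These genes and *Hspg2* were named for few or many retained CpGs, a choice that used shTet3 BS libraries of the same DNA. The contrast between them follows from that choice and is a description.

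**Figure D5:**
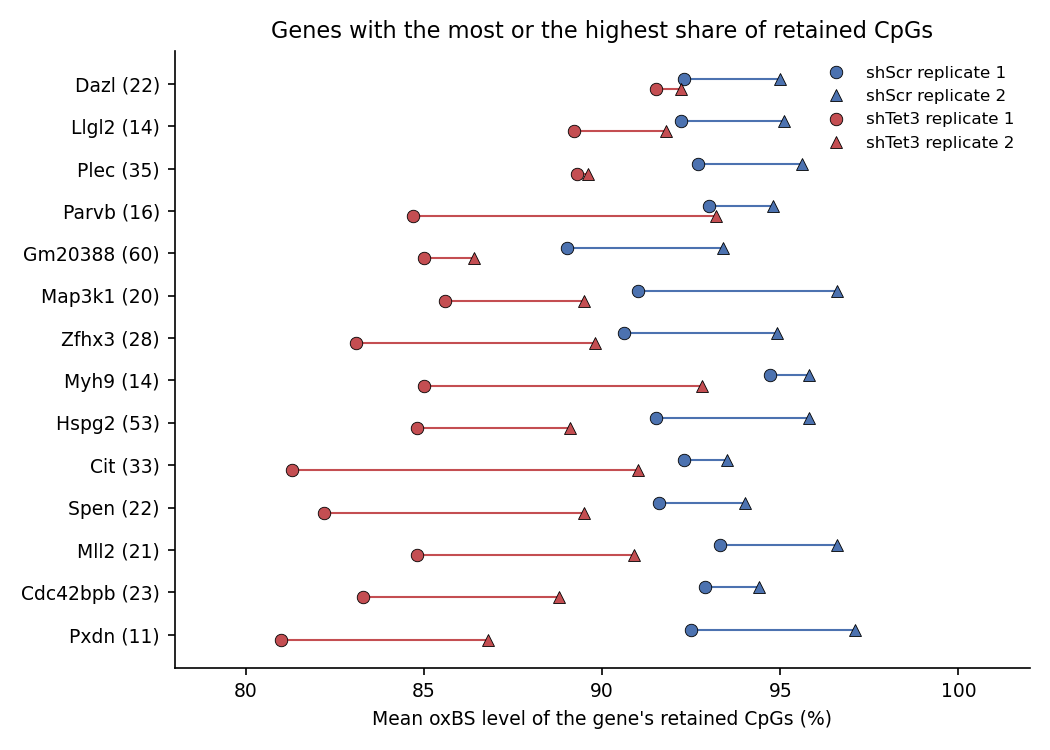
Mean oxBS level (%, x axis from 78) of the retained CpGs of each gene in the shScr and shTet3 replicates, with the number of retained CpGs in brackets and a line joining the 2 replicates. The genes run from the largest difference at the bottom (*Pxdn*, −10.9 percentage points) to the smallest at the top (*Dazl*, −1.81), and shTet3 reaches the shScr range only for *Parvb*.

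Other long runs were in *Pitpnm2*, *Fzr1* and *Spred2*. The 8 CpGs of *Pitpnm2*, a phosphatidylinositol transfer protein gene, averaged 92.4% and 93.9% in shScr against 86.0% and 85.5% in shTet3. The 7 of *Fzr1*, which encodes an activator of the anaphase-promoting complex, lay mostly in its 3′ UTR (chr10:80830149-80830259) and averaged 90.4% and 94.3% in shScr against 81.9% and 83.8% in shTet3. The 7 of *Spred2*, an inhibitor of Ras signalling, averaged 96.3% and 96.6% in shScr against 84.0% and 94.9% in shTet3. In all 3 runs the groups did not overlap. Hypo-DMPs were 2 of 8, 2 of 7 and 1 of 7, against 21.9% of all retained CpGs. The *Spred2* difference of −6.99 percentage points was −1.54 without shTet3 replicate 1, −12.4 without shTet3 replicate 2 and −4.39 at an oxBS coverage of at least 20.

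Of 6321 retained CpGs with an oxBS coverage of at least 20, 3 were at 100% in the 4 oxBS libraries, in introns of *Ank3* (chr10:69452647), *Aaas* (chr15:102175987) and *Timeless* (chr10:127688990). The coverage at *Ank3* was 100, 62, 64 and 49 calls. The largest fall was in a coding exon of *Msl1*, from 97.3% and 96.8% in shScr to 50% and 74.3% in shTet3 (pooled difference −35.5 percentage points, logistic regression *q* = 3.21e-08), although its BS levels in shTet3 were 84.1% and 95%. Next were *Gas7* (−34.9) and *Igsf9b* (−34.2). The largest rise was in a coding exon of *Prr22*, from 73.3% and 84.0% to 100% and 89.7% (pooled difference 18.9, *q* = 0.00562). Its BS levels went the other way, from 100% and 91.7% in shScr to 90.9% and 81.8% in shTet3. At *Tmbim6* the pooled difference was 18, but one shTet3 replicate lay within the shScr range, and at an intergenic CpG (chr5:143890899) it was 16.1 with *q* = 0.0478, which misses the threshold. BS levels at *Tmbim6* were also lower in shTet3, at 84.9% and 87.5% against 92.2% and 98.4% in shScr. At the intergenic CpG the BS groups overlapped.

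Retained CpGs and others lay side by side. In 4325 pairs at most 30 bp apart, the pooled oxBS fall of the retained CpG was smaller in 2790 (64.5%), with a median gap of 2.66 percentage points. The pair with the largest gap was in *Prkd2*, a protein kinase gene, 21 bp apart. There the retained CpG was at 72.4% and 96.9% in shScr against 67.9% and 90.5% in shTet3, and the other one at 89.7% and 90.6% in shScr against 50% and 48.4% in shTet3 (*q* = 1.65e-06 for the latter), with 28 to 63 calls per library. In *Rbck1*, a ubiquitin ligase gene, a pair 16 bp apart differed by 34.3 percentage points, and in *Otud3*, a deubiquitinase gene, a pair 19 bp apart by 32.5. These 3 pairs were picked for their size, so the gaps are a description.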

How the data were processed

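oxRRBS libraries of shScr and shTet3 NPCs (2 replicates each, BS and oxBS, 100 ng of DNA) were grouped by their labels. The authors trimmed reads with Trim Galore, aligned them to mm9 with Bismark and tabulated CpGs with methylKit (versions are not given in the sources used here). The deposited coverage is a whole-number count of calls per CpG and library, without normalization, and the deposited levels are in percent, for methylated (C) and unmethylated (T) calls. A minimum coverage of 5 had been applied. Coverage times percent gave whole methylated calls. The libraries held 42516767 to 61865967 calls, with a median coverage of 43 to 54, and the retained CpGs had medians of 50.0 to 64.0. PCR copies carried no molecular identifiers, so tests on calls cover counting error only.

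Levels were unweighted means over CpGs, compared over libraries by a two-sided exact permutation test. DMPs were called over all 662455 CpGs with an oxBS coverage of at least 10, by a likelihood ratio test of a logistic regression computed from the counts (Python 3.11.15, numpy 2.4.6, scipy 1.17.1), with Benjamini-Hochberg *q* values below 0.01 and a difference over 10 percentage points. The tests were checked on simulated calls without spread between replicates, so the check does not cover that spread. Genes, UTRs and promoters were those of GENCODE vM1 on mm9, with a gene's CpGs counted from 1 kb before its start, and overlapping genes count the same CpG. A promoter took precedence over coding sequence in the region classes. CpG islands were predicted from windows of 500 bp (55% GC, observed over expected 0.65). Sequences were read from mm9.

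Members and gene lists were chosen with earlier results of these data known. Named were the 10 genes with the most retained CpGs, the 6 with the highest and 4 with the lowest share among those with at least 20 highly methylated CpGs, the 6 promoters and 6 runs (gaps up to 1 kb) with the most, the 3 single CpGs highest in oxBS and those with the largest falls and rises, the 3 pairs with the largest gap, and the 2 genes of each list with the most highly methylated CpGs. Deviations between replicates at single CpGs did not go together in shScr and shTet3 (r = −0.0361 over 662455 CpGs). This r takes no account of a shift of the mean. Replicate 1 had the lower mean with both shRNAs, by oxBS 90.7% against 94.6% in shScr and 80.9% against 87.7% in shTet3 at the retained CpGs. The r therefore cannot decide whether the numbers pair the replicates, and the permutation tests did not pair them. Alternatives were other coverage minimums and thresholds, weighting, CpG thinning, crossed choices of replicate, other tests, the replicate block and leaving out each replicate. The X chromosome is outside the rule.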

Additional observations from a re-analysis of the deposited data

How the results depend on the processing

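The mean oxBS differences of both sets kept their direction under every alternative. They ran from −4.89 to −11.7 percentage points for the retained CpGs and from −11.0 to −18.7 for the others when 1 replicate was left out, and the gap between them from 4.67 to 8.45. The gap reversed to −0.189 when CpGs were chosen on BS replicate 2 and measured in oxBS replicate 1, and the cause was not tested. Leaving out 1 replicate gave 425 to 1849 hypo-DMPs among the retained CpGs, 6651 to 17554 among the others and 1 to 31 hyper-DMPs among the retained. The overdispersion-corrected F test gave 0 in each case. Hyper-DMPs among the retained CpGs numbered 8 without a minimum difference and 2 when both replicates had to lie beyond both controls. The rule selected 15456 CpGs at thresholds of 80%, 1992 at 90% and 3060 with each BS replicate at the threshold. Retained CpGs in predicted islands were 44.4% with windows of 200 bp and 5.31% with 1 CpG per 1 kb window, and those in promoters 6.91% with −2 kb to +1 kb, 12.6% with all transcripts and 3.75% with 1 CpG per 1 kb window. With the replicate block, 1543 retained and 16275 other CpGs were hypo-DMPs, and 4 retained CpGs were hyper-DMPs. In this balanced design the block cannot move the mean differences (−8.32 and −14.9). The alternatives for named genes, promoters and runs, the germline list without *Dazl* and the same-replicate choices were added after seeing the data. Of the 209 values of named genes, promoters, runs and that list, 5 changed sign, in the *Tnrc18* promoter and the *Dazl* and *Parvb* runs. With 2 replicates a group, the exact permutation test cannot give a p below 0.333, and BS and oxBS libraries of a replicate share their DNA, so the oxBS check is no check in other cells.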

Other observations

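Outside the rule, the X chromosome held 6206 CpGs with a BS coverage of at least 20 in the 4 BS libraries. Of these, 380 were at 85% or more in shScr BS and 61 of the 380 (16.1%) also in shTet3 BS, near the 15.3% of the autosomes. By oxBS, 60 of the 61 averaged 90.4% and 93.3% in shScr against 79.8% and 87.2% in shTet3, which differ by −8.34 percentage points.

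The same rule applied to the oxBS libraries, with a coverage of at least 20 there, selected 7325 CpGs, and 3053 CpGs were in both sets. These were 44.1% of the retained CpGs chosen on BS and 41.7% of those chosen on oxBS. When the CpGs chosen on oxBS were measured in the BS libraries, the differences between shTet3 and shScr were −8.28 percentage points for the retained CpGs and −14.9 for the others.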
